A study of Mus musculus with 8 samples.

Results

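The genes of excitation-contraction coupling and calcium handling were followed in C2C12 cells, a mouse myoblast line, after silencing of the long non-coding RNA Pvt1. The 10 members were the channels Cacna1s and Ryr1, the junction protein Jph2, the pumps Atp2a1 and Atp2a2, the calcium-binding proteins Casq1, Casq2 and Pvalb, and the store-operated entry genes Stim1 and Orai1. They were found by gene symbol among the spots of the array that are not controls, which gave 18 probes of 56605 on the array. A probe was tested if it had at least 3 values in each group, and 13 of the 18 were, against 28649 on the whole array.

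All 8 cultures were proliferating C2C12 cells at passage 10, transfected with Lipofectamine and antisense LNA GapmeRs, short DNA-like oligonucleotides whose RNA target is cut by the cell's RNase H. The 4 silenced cultures received GapmeRs against Pvt1, and the 4 control cultures received negative control GapmeRs. The cultures were kept as myoblasts and not differentiated into fibers. In such bulk samples fewer cells of a type cannot be told apart from less RNA per cell. Each culture gave RNA for 1 one-colour Agilent array. The labels name the following pair of GapmeRs without saying which culture received which, and they are shown because they define the silenced group, 5′ to 3′, with no part marked.
Pvt1_1: accgtagtagagttaa
Pvt1_3: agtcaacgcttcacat

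In skeletal muscle, a voltage sensor in the t-tubule membrane (Cacna1s) opens the calcium release channel of the sarcoplasmic reticulum (Ryr1), and junctophilins hold both membranes close together. Pumps of the SERCA type (Atp2a1, Atp2a2) return calcium to the store, where calsequestrins bind it. When the store empties, the sensor Stim1 opens the Orai1 channel of the plasma membrane. Myoblasts use store-operated entry and the pumps, while the voltage sensor and the release channel are best known from differentiated muscle.

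Pvt1 itself was lower in the silenced cells. Its brightest probe read 9.65, 9.79, 10.31 and 9.70 on the log2 scale in control replicates 1 to 4 and 7.09, 6.69, 7.85 and 6.39 in silenced replicates 1 to 4. The change was -2.86 (SE 0.32, limma adjusted p 0.000682), with no overlap between the groups. The arrays were not equally bright. The share of spots with positive and significant signal was 58.8% to 62.5% on 7 arrays, counting 59.8% to 61.0% on silenced replicates 1 to 3, and 51.6% on silenced replicate 4. Control replicate 3 had the lowest mean correlation with its group, 0.962 against 0.979 to 0.985 on the other arrays. Myoblast markers were present: 7 of 8 were well above background on all 4 control and all 4 silenced arrays. Their summed log2 level was 17.37 to 17.51 in controls and 16.90 to 17.20 in silenced cells, lower without overlap. The summed log2 level of 8 liver genes was 9.71 to 10.71 in controls and 12.18 to 12.51 in silenced cells. Of these, Alb, Mup1, Serpina1a, Fgb and Ahsg were well above background on all 4 silenced arrays and on 0 control arrays, Ttr on 3 and 0, Apoa2 on all 8, and Apoa1 on none. The 6 blood and immune genes summed to 13.58 to 14.07 in controls and 14.42 to 14.77 in silenced cells, with Hbb-b1 and Cd79a well above background on no array. Cd68, a macrophage marker, was higher without overlap (1.84, limma adjusted p 0.000799), and under cyclic loess Ptprc and Hba-a1 passed as higher too (1.44 and 0.76). All 4 endothelial markers and 3 of 4 epithelial markers (Epcam, Cdh1 and Krt18) were well above background on no array. The fourth epithelial marker, Krt8, was so on 3 silenced arrays and 0 control arrays (1.20 over 3 control and 4 silenced values, limma adjusted p 0.105; 1.45 with adjusted p 0.00856 under cyclic loess). The epithelial sum was 5.85 to 6.36 in controls and 6.70 to 7.16 in silenced cells. The part of these differences in the results that follow was not tested.

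Of the 13 tested member probes, 6 were lower in silenced cells at an adjusted p under 0.05, and 0 were higher. Over all probes tested, 23.2% passed, 18.4% lower and 4.79% higher. By the brightest probe of each gene, 5 of the 9 tested members fell (Atp2a1, Atp2a2, Cacna1s, Jph2 and Orai1), beside 14.0% of all genes lower and 5.99% higher. The other 4 tested members (Ryr1, Casq2, Stim1 and Pvalb) did not pass the test, and Casq1 was not tested. The median change of the member probes was -0.82 on the log2 scale, beside -0.19 over all probes. Silenced values lay below every control value without overlap for 6 member probes, beside 22.6% of all probes, and above every control value for 0, beside 5.61%. The slide held 3 control arrays and 1 silenced array in its upper row, and 1 control array and 3 silenced arrays in its lower row. The 6 called probes were lower in silenced cells within both rows, with differences of -2.23 to -0.69 in the upper row and -3.47 to -1.30 in the lower. With the slide row as a block 5 of the 6 kept their call, all but the variant 1 probe of Atp2a2 (-1.0, limma adjusted p 0.121).

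The balance of lower and higher calls depended on the normalization. After quantile normalization, used here for all values unless stated, 79.3% of the called probes were lower in silenced cells. After cyclic loess the share was 49.3% and the median of all probes was 0.02, with 18.4% called lower and 18.9% called higher. A shift to the 75th percentile gave 37.6% lower, the authors' own values 48.8% lower, and analysis without masking of dim spots 49.0%. It also depended on silenced replicate 4: without that array quantile normalization gave 5189 probes lower and 3649 higher (58.7% lower, median of all probes -0.02), beside 5269 and 1373 with it. Relative to the median of all probes, the 6 called member probes changed by -2.50 to -0.76. Under cyclic loess, 6 member probes were called lower and 2 higher (Casq2 and the upstream Stim1 probe). Each member's change is therefore given under both normalizations.

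**Figure D1:**
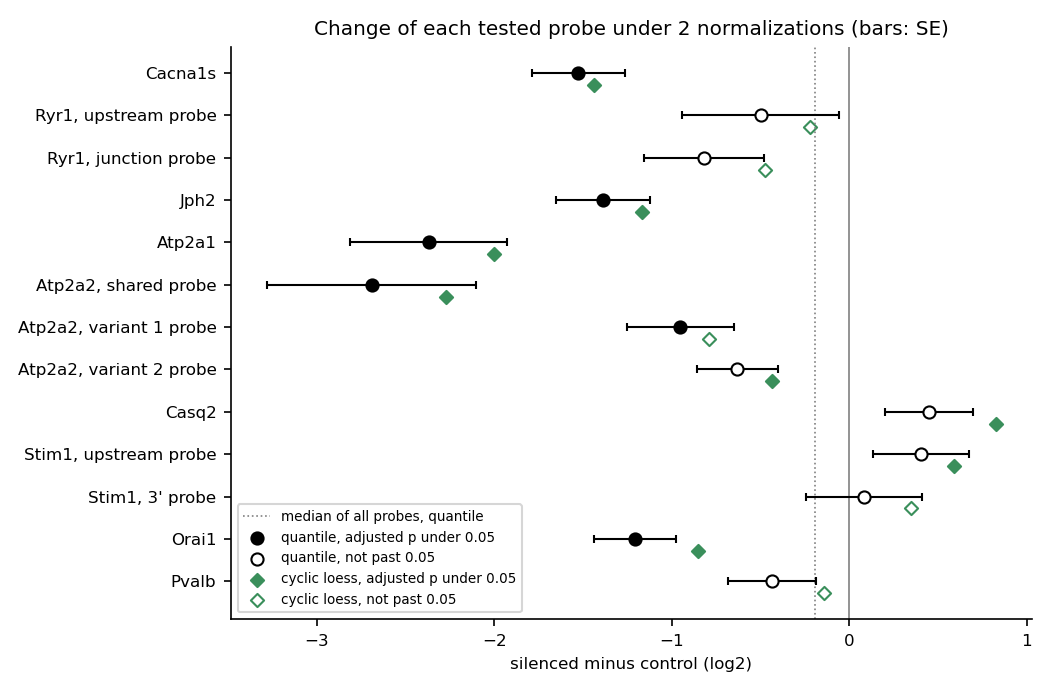
Log2 change of each tested member probe, silenced minus control (x axis), with its SE, after quantile normalization (circles) and cyclic loess (diamonds); filled symbols passed an adjusted p of 0.05. The probes of Cacna1s, Jph2, Atp2a1 and Orai1 and the shared Atp2a2 probe lay below 0 and were filled under both normalizations, while Casq2 and the upstream Stim1 probe lay above 0 and were filled under cyclic loess alone.

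Cacna1s encodes the pore-forming subunit of the voltage sensor. Its single probe (chromosome 1, 138016020 to 138016079, plus strand, build mm9) read 5.73, 5.96, 6.61 and 6.26 in control replicates 1 to 4. It read 4.48, 4.81 and 4.55 in silenced replicates 1 to 3 and was not positive and significant in replicate 4, which the fit left out. Every measured silenced value was below every control value. The change was -1.53 (SE 0.26, limma adjusted p 0.00482), and -1.44 under cyclic loess (limma adjusted p 0.00199). The signal was close to background, well above it on 2 of 4 control arrays and on 0 of 4 silenced arrays. Against the lowest signal that counts as well above background the control mean was not higher, so the size of this change is a difference of dim signals with no lower bound. With normexp background correction the change was -0.42 and the call was lost (limma adjusted p 0.0733). The first 30 bases of the probe are shown to identify the dim site, with no part marked.
Cacna1s: cacaaaggcctgatcggtgccagggtctgt

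Among the 6 listed genes of the voltage sensor, all tested, 4 fell and 1 rose, beside 14.0% and 5.99% of all genes. Cacng1, the gamma subunit of the muscle channel, fell from 11.49 ± 0.11 to 10.06 ± 0.15 (SD, n = 4 each), a change of -1.43 (SE 0.18, limma adjusted p 0.00106). The beta subunit genes Cacnb3 and Cacnb1 changed by -0.92 and -0.77 (limma adjusted p 0.0123 and 0.0303), of which Cacnb1 lost its call under cyclic loess (-0.41, limma adjusted p 0.0792). Cacna2d1, an accessory subunit, did not pass the test (-0.38, limma adjusted p 0.288). Stac3, an adaptor needed for the sensor to reach the membrane, rose by 1.12 (SE 0.35, limma adjusted p 0.0444). Its silenced values of 10.51, 10.18, 10.79 and 9.56 overlapped the controls at 8.57, 8.87, 9.93 and 9.19. Genes of the voltage sensor complex thus passed the test in both directions. Under cyclic loess 3 were lower and 1 higher, beside 14.3% and 22.1% of all genes.

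Ryr1, the release channel, had 3 probes, of which 2 were tested. The probe whose 60 bases span 699 bases of the genome, and so cross at least 1 intron, covers chromosome 7, 29788789 to 29789487, minus strand. It read 7.40, 7.75, 8.96 and 7.88 in controls and 7.33, 7.32, 7.37 and 6.69 in silenced cells, and was well above background on all 8 arrays. Each silenced value was lower than each control value, the nearest being 7.37 and 7.40, yet the change of -0.82 (SE 0.34) did not pass the test (limma adjusted p 0.109). Under cyclic loess it was -0.47 (limma adjusted p 0.229). Of the 20 alternatives it passed in 1, where spots not well above background were left out of the normalization (-0.92, limma adjusted p 0.0433). Without control replicate 3 the change was -0.50 (limma adjusted p 0.173), and with silenced replicate 4 left out as well it was -0.34 (limma adjusted p 0.151). The probe's first 30 bases are shown as the junction-spanning site.
Ryr1 junction probe: tttgagacccacactctagaagagcacaac

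A probe of a Ryr1 cDNA clone 18844 bases upstream (29807633 to 29807692) read 6.45, 6.86, 5.21 and 6.86 in controls and 6.53, 6.34, 5.21 and 5.30 in silenced cells. These groups overlapped fully, and the change was -0.50 (SE 0.44, limma adjusted p 0.454), -0.22 under cyclic loess (limma adjusted p 0.723), and -0.88 without control replicate 3 (limma adjusted p 0.105). This probe was dim, well above background on 3 control and 2 silenced arrays. The third probe, at 29899378 to 29899437, was positive and significant on 1 of 8 arrays. The other release channel genes, Ryr2 and Ryr3, were on the array and not tested. Of 15 tested release channels and partners 1 fell, Calm2 (-0.63, limma adjusted p 0.0373), a calmodulin gene, beside 14.0% of all genes. Under cyclic loess 1 of the 15 fell and 4 rose, beside 14.3% of all genes lower and 22.1% higher. Those that rose were Itpr3, a channel opened by inositol trisphosphate (0.75), the store's cation channels Tmem38a and Tmem38b (0.77 and 1.12) and Jsrp1 (0.44). After quantile normalization these changed by 0.54, 0.59, 0.74 and 0.27 without passing.

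Jph2 encodes a junctophilin, which ties the plasma membrane to the store. Its probe (chromosome 2, 163162620 to 163162679, minus strand) read 10.34, 10.67, 10.93 and 10.73 in controls and 9.41, 9.73, 9.37 and 8.63 in silenced cells. All 4 silenced values were below the lowest control. The silenced cells held 38.3% of the control level, a change of -1.39 (SE 0.26, limma adjusted p 0.00603). The change was -1.17 under cyclic loess (limma adjusted p 0.00107), and the call held under all 20 alternatives that were run.
Jph2: ttcgtgcttggcagaaggtttacccgcatg

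The other listed junctophilins were lower as well. Jph4 changed by -0.84 (SE 0.25, limma adjusted p 0.040; -0.53 with adjusted p 0.0565 under cyclic loess). Jph1 exceeded background clearly on 3 control arrays and on no silenced array. Its control mean was at least 1.15-fold higher than the lowest signal well above background (limma adjusted p 0.0112). Bin1 and Dysf, which shape and repair t-tubule and surface membranes, did not pass (-0.29 and 0.41). In all, 3 of 6 tested genes of the junction and t-tubule fell and 0 rose, beside 14.0% and 5.99% of all genes. Cav3 was not tested. Under cyclic loess 2 fell and 1 rose, Dysf (0.77, limma adjusted p 0.0233), beside 14.3% and 22.1% of all genes.

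Atp2a1 encodes SERCA1, the pump of fast muscle fibers. Its probe (chromosome 7, 133591703 to 133591762, minus strand) read 8.50, 8.78, 7.08 and 8.94 in control replicates 1 to 4 and 5.91, 6.80, 5.79 and 5.35 in silenced replicates 1 to 4. The groups did not overlap, although control replicate 3 was the lowest control. The change was -2.37 (SE 0.44, limma adjusted p 0.00536), which left 19.3% of the control level. It was -2.0 under cyclic loess (limma adjusted p 0.00818), -1.43 with normexp background correction (limma adjusted p 0.00484) and -2.78 without control replicate 3, and all 19 alternatives that gave a value kept the call. Only 1 of 4 silenced arrays was well above background, so the size of the fall rests on dim silenced spots.
Atp2a1: tgccgtggaggaaggccgcgccatctacaa

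Atp2a2 encodes SERCA2, which is made in forms with different C-termini from messages with different 3′ ends, one typical of slow muscle and heart and another found in most cells. The array carried 3 probes on the minus strand of chromosome 5, build mm9. The shared probe (122910660 to 122910719) is assigned in the files to transcript variants 1 and 2. Another lies 3810 bases farther downstream and is assigned to variant 1 (122906850 to 122906909), and the last 3146 bases beyond that is assigned to variant 2 (122903704 to 122903763). Which parts are coding or UTR was not analysed here, and the files do not say which variant is which form. The first 30 bases of each are shown because the measured changes at the 3 sites ran from -2.69 to -0.63, with no part marked.
Atp2a2 shared probe: tcgagttgaaccttcccacaagtctaagat
Atp2a2 variant 1 probe: gaaaaagcatgtacagtgttctgtttaata
Atp2a2 variant 2 probe: gttccacactgtattattgtaacttattta

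The shared probe read 9.73, 10.06, 7.46 and 10.02 in controls and 6.85, 7.50, 5.85 and 6.30 in silenced cells. Control replicate 3 lay below silenced replicate 2, and the other 3 controls lay more than 2 log2 units above every silenced value. The change was -2.69 (SE 0.59, limma adjusted p 0.0106), -2.27 under cyclic loess (limma adjusted p 0.0239), and -3.31 without control replicate 3 (limma adjusted p 0.000905). With normexp background correction it was -1.87 (limma adjusted p 0.00888), and the probe was well above background on 3 of 4 silenced arrays. The call was lost without masking of dim spots (-2.39, limma adjusted p 0.0629) and with the methods' t-test (Benjamini-Hochberg adjusted p 0.0785).

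The variant 1 probe, the brightest of the 3, read 12.32, 12.42, 11.26 and 12.39 in controls and 11.30, 11.50, 10.94 and 10.84 in silenced cells. Again control replicate 3 lay within the silenced range. The change was -0.95 (SE 0.30, limma adjusted p 0.0464) and -0.79 under cyclic loess (limma adjusted p 0.0685). Of 20 alternatives 14 lost this call, all of them with a change below 0. Without control replicate 3 it was -1.23 (limma adjusted p 0.0055).

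The variant 2 probe read 10.05, 10.14, 10.62 and 10.12 in controls and 9.67, 9.76, 9.82 and 9.17 in silenced cells. Here control replicate 3 was the highest control, and the groups did not overlap. The change of -0.63 (SE 0.23) did not pass the test (limma adjusted p 0.0733). It passed under cyclic loess (-0.43, limma adjusted p 0.0431) and under 2 other alternatives.

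**Figure D2:**
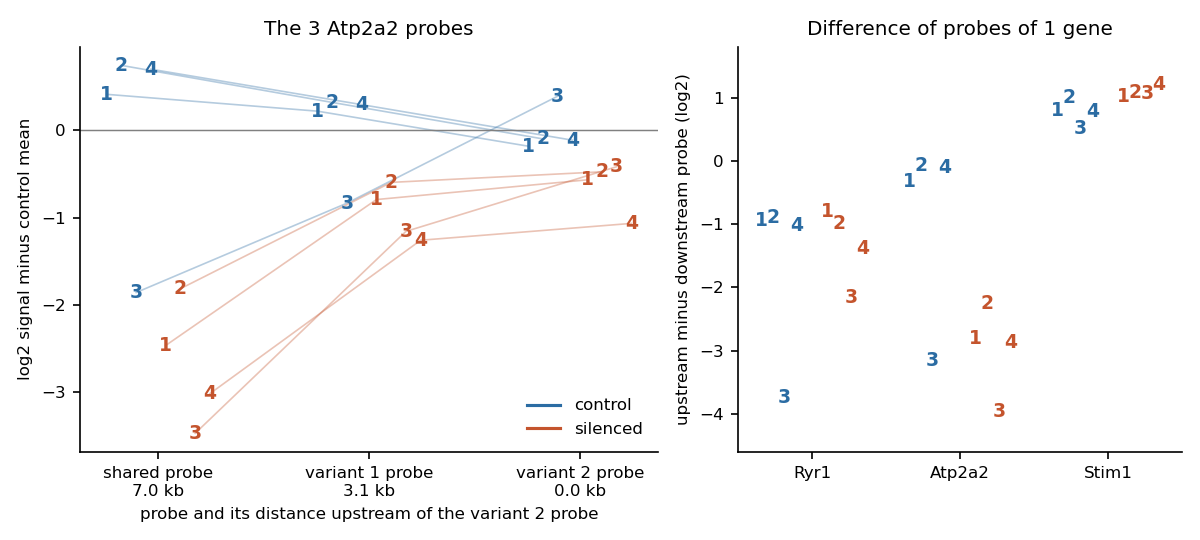
Left, log2 signal of each array minus the control mean for the 3 Atp2a2 probes in their order along the gene, with digits for replicates joined by lines. Right, log2 difference of the upstream minus the downstream probe of Ryr1, Atp2a2 and Stim1 on each array. The silenced arrays spread widest at the shared probe, and control replicate 3 runs with the silenced arrays there (-3.17 for its Atp2a2 difference).

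Whether probes of a gene moved apart was tested for the 3 members with 2 or more tested probes, with an exact two-sided permutation test of the difference between the most upstream and the most downstream probe on each array. Its smallest p for 4 against 4 arrays is 0.0286. For Atp2a2, the shared minus the variant 2 probe was -0.32, -0.07, -3.17 and -0.10 in controls and -2.81, -2.26, -3.97 and -2.87 in silenced cells. The mean difference between the groups was -2.06, and the exact permutation test did not pass (p 0.114, adjusted over 3 genes 0.171). Without control replicate 3 it was -2.81 (exact permutation p 0.0286, adjusted 0.0429). The shared minus the variant 1 probe, a pair chosen after the data were seen, differed by -1.74 without overlap (exact permutation p 0.0286). Variant 1 minus variant 2, chosen likewise, differed by -0.32 (exact permutation p 0.40). For Ryr1 the difference was 0.32 (adjusted exact permutation p 0.80) and turned to -0.38 without control replicate 3, and it rests on an upstream probe that was well above background on 5 of 8 arrays. For Stim1 it was 0.32 without overlap (exact permutation p 0.0286, adjusted 0.0857). With only 1 of the 3 genes at the smallest p, the adjusted p cannot be lower than 0.0857, so Stim1 could not pass. The Stim1 probes lie 453 bases apart. Without control replicate 3 the Stim1 difference shrank to 0.23, and its exact permutation p was again the smallest possible, 0.0286. Its adjusted p was 0.0429 there because Atp2a2 had reached the smallest p too.

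Of the store pumps and their small inhibitors, Atp2a3 was well above background on no array (0.51, limma adjusted p 0.169; 0.57 with adjusted p 0.0491 under cyclic loess), and the inhibitors Sln and Pln were not tested.

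Casq2 encodes the calsequestrin of heart and slow muscle, and Casq1 that of fast muscle. The tested Casq2 probe (chromosome 3, 101950367 to 101950425, plus strand) read 7.24, 7.62, 7.94 and 7.59 in controls and 7.88, 8.15, 8.51 and 7.65 in silenced cells. It was well above background on all 8 arrays, and 2 of 4 silenced values were above every control. The change of 0.45 (SE 0.25) did not pass (limma adjusted p 0.221), while under cyclic loess it was 0.82 (limma adjusted p 0.00742). It passed in 5 of 20 alternatives, with values of 0.70 to 0.82 there. A second Casq2 probe, spanning 3001 bases of the genome and so at least 1 intron (101920873 to 101923873), was positive and significant on no array. The Casq1 probe (chromosome 1, 174140256 to 174140315) was likewise positive and significant on 0 of 8 arrays.

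The tested Casq2 probe and the downstream Stim1 probe hold AATAAA, the letters of the common polyadenylation signal, searched on the probe's own strand. They are shown as 30 bases with that hexamer in capitals.
Casq2: ttatggaatagtAATAAActaatggacatt
Stim1 downstream probe: ataagattctttgaagtccAATAAAgcatg
The hexamer was present in 11.1% of all tested probes. Those probes had a median change of 0.18, beside -0.25 for probes without it. The other 11 tested member probes, which include the upstream Stim1 probe and those of Ryr1 and Pvalb, do not hold it. The part of probe position in these results was not tested.

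Among 6 tested genes for calcium binding within the store, Calr, the calreticulin gene, fell (-0.74, limma adjusted p 0.0446; -0.55 with adjusted p 0.069 under cyclic loess). Hrc and Srl, further store proteins of muscle, changed by -0.23 and -0.36 without passing. Pvalb, the cytosolic buffer parvalbumin of fast fibers, was well above background on no array. Its probe (chromosome 15, 78021951 to 78022010, minus strand) read 5.07 to 5.53 in controls and 4.44 to 5.45 in silenced cells, with a change of -0.43 (limma adjusted p 0.237), or -0.14 under cyclic loess (limma adjusted p 0.520). No difference in Pvalb or Casq1 was measurable at these signals.

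**Figure D3:**
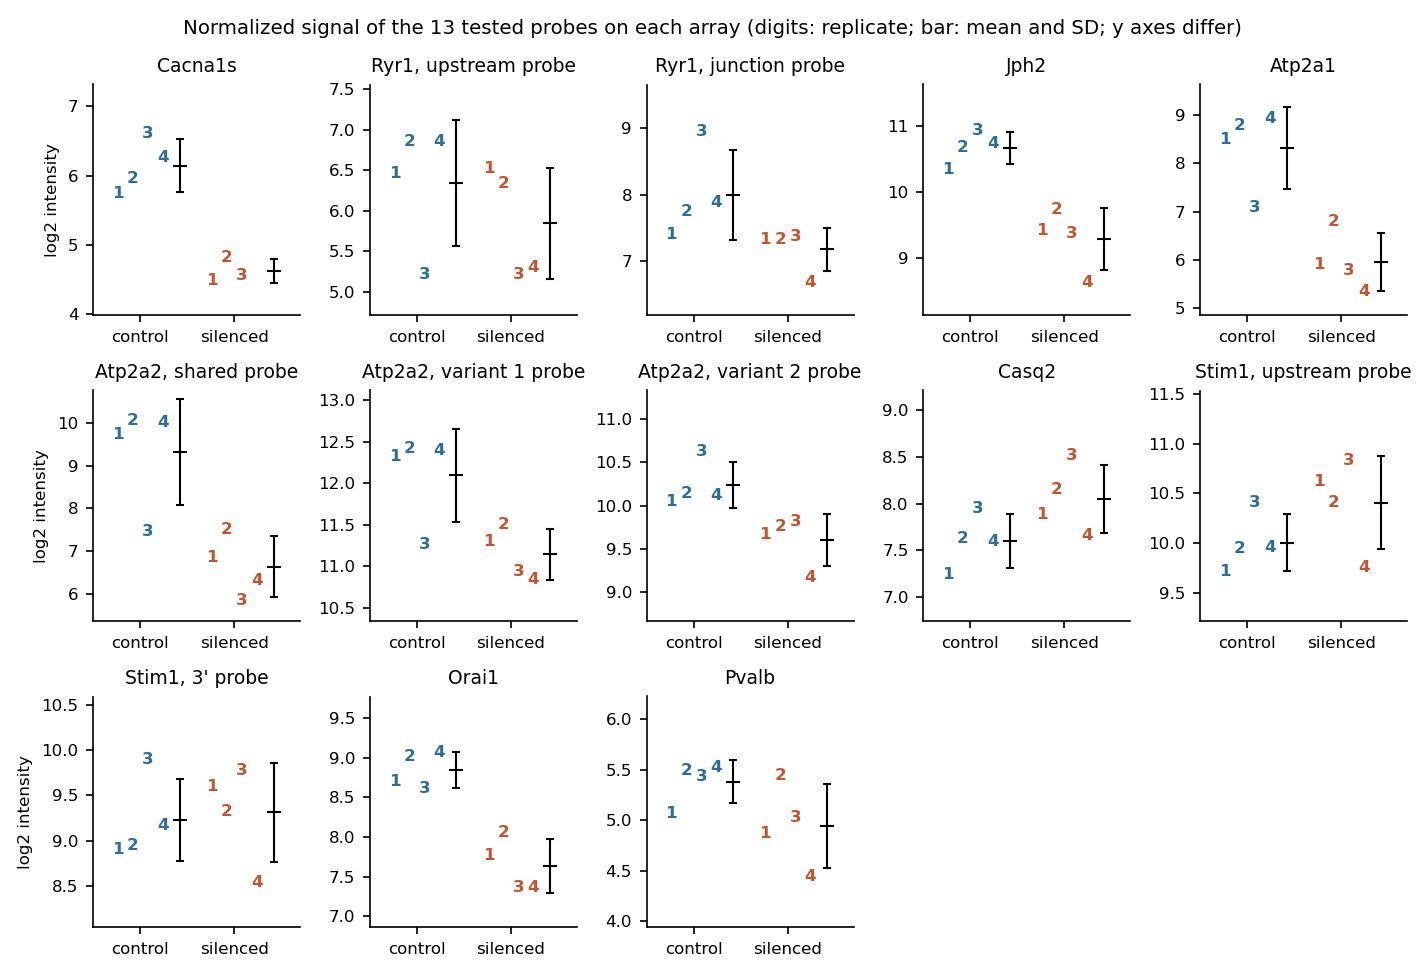
Log2 intensity of the 13 tested member probes on each array, with digits for replicates and bars for the mean and SD of each group (n = 4, and 3 for silenced Cacna1s). The y axes differ between panels, since signals of different probes are not comparable. Control replicate 3 is the lowest control in the panels of Atp2a1, Orai1, the shared and variant 1 probes of Atp2a2 and the upstream Ryr1 probe, and the highest control in all others except Pvalb.

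Stim1, the store's calcium sensor, had 4 probes, of which 2 near each other on chromosome 7, plus strand, were tested. The upstream one (109585303 to 109585362) read 9.71, 9.95, 10.40 and 9.95 in controls and 10.62, 10.41, 10.84 and 9.76 in silenced cells. Silenced replicates 1 to 3 were above every control, and replicate 4, the dimmest array, was not. The change was 0.40 (SE 0.27, limma adjusted p 0.319). Under cyclic loess it was 0.59 (limma adjusted p 0.0135), and it passed in 5 of 20 alternatives. The downstream one (109585756 to 109585815) read 8.91, 8.95, 9.89 and 9.17 in controls and 9.60, 9.33, 9.78 and 8.54 in silenced cells. These values overlapped, with a change of 0.08 (SE 0.32, limma adjusted p 0.885), or 0.35 under cyclic loess (limma adjusted p 0.216). The other 2 Stim1 probes were positive and significant on 1 array each. Leaving out control replicate 3 and silenced replicate 4 together gave 0.75 and 0.56 for the pair of tested probes (limma adjusted p 0.0111 and 0.0356).

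Orai1, the channel that Stim1 opens, fell. Its probe (chromosome 5, 123479321 to 123479380, plus strand) read 8.69, 9.01, 8.60 and 9.07 in controls and 7.77, 8.05, 7.36 and 7.36 in silenced cells. All 4 silenced values were below the lowest control, and every array was well above background. The silenced cells held 43.3% of the control level, a change of -1.21 (SE 0.23, limma adjusted p 0.00602). It was -0.85 under cyclic loess (limma adjusted p 0.0228), and the call held under all 20 alternatives.
Orai1: gtcatcgggacgctgcttttcctagcagag

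Its relative Orai2 rose, with 9.34, 9.78, 8.99 and 9.63 in controls and 10.20, 10.42, 10.50 and 9.99 in silenced cells. The groups did not overlap (0.84, SE 0.23, limma adjusted p 0.0283; 1.07 under cyclic loess). Orai3 changed by 0.38 and did not pass (limma adjusted p 0.309). Trpc6, a receptor-operated cation channel, fell by 2.34 on the log2 scale (SE 0.31, limma adjusted p 0.00124), although only 1 of 4 silenced arrays was well above background. Stim2 and Saraf, a sensor and a brake of store-operated entry, changed by 0.31 and 0.63 without passing. In all, 2 of 8 tested genes of store-operated entry fell and 1 rose, beside 14.0% and 5.99% of all genes. Under cyclic loess 2 fell and 4 rose, beside 14.3% and 22.1% of all genes. Those that rose were Stim1, Orai2, Orai3 (0.55, limma adjusted p 0.0472) and Saraf (0.83, limma adjusted p 0.00489).

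Across the whole list of 106 calcium genes, which includes the members, 85 were tested, 18 fell, 2 rose and 65 did not pass. The median change was -0.09, the same as over all 19360 genes by their brightest probe (-0.09). The 76 tested genes that are not members held 13 that fell and 2 that rose, with a median of -0.04. Those are 17.1% and 2.63% of the 76, beside 14.0% and 5.99% of all genes. Under cyclic loess 9 of the 76 fell and 14 rose. Over the whole list cyclic loess gave 13 that fell and 16 that rose, beside 14.3% of all genes lower and 22.1% higher, so the direction of the majority turned with the normalization. The members had been chosen with results of these data known, so their larger share of falls is a description.

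Among the remaining roles, Slc8a3, a sodium-calcium exchanger of muscle and brain, fell (-0.98, limma adjusted p 0.0254), and no other tested gene of export across the plasma membrane passed. Over all genes 14.0% fell and 5.99% rose, the shares to set beside the counts in these roles. Mcu, the pore of the mitochondrial calcium uniporter, fell (-0.79, limma adjusted p 0.0175), while its regulator Micu2 changed by -0.06 without passing. For Micu2 the value rested on control replicate 3, and without that array it was -0.67 (limma adjusted p 0.123). Vdac1, a channel of the outer mitochondrial membrane, passed under cyclic loess (0.72, limma adjusted p 0.00987) and not after quantile normalization (0.53, limma adjusted p 0.135). Of 16 tested calcium-dependent effectors 1 fell, Camk1, a calmodulin-dependent kinase (-1.78, SE 0.27, limma adjusted p 0.0022). The calcineurin subunit genes Ppp3ca, Ppp3cb and Ppp3r1 changed by -0.10, -0.12 and -0.03 without passing. Of 9 tested genes of excitation, 2 subunits of the acetylcholine receptor fell. Chrnb1 changed by -1.74 (limma adjusted p 0.00767) and Chrne, the adult subunit, by -1.52 (limma adjusted p 0.0189). Chrne was well above background on 1 of 4 silenced arrays and lost its call under cyclic loess (-1.20, limma adjusted p 0.0635). Chrng, the embryonic subunit, changed by 1.09 and missed the threshold (limma adjusted p 0.0530), while under cyclic loess it passed at 1.45 (limma adjusted p 0.00188). In all, 1 gene of excitation fell and 3 rose under cyclic loess, beside 14.3% and 22.1% of all genes. The others that rose were Chrnd, a further receptor subunit (0.69), and Musk, the kinase that organises the neuromuscular junction (0.91).

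**Figure D4:**
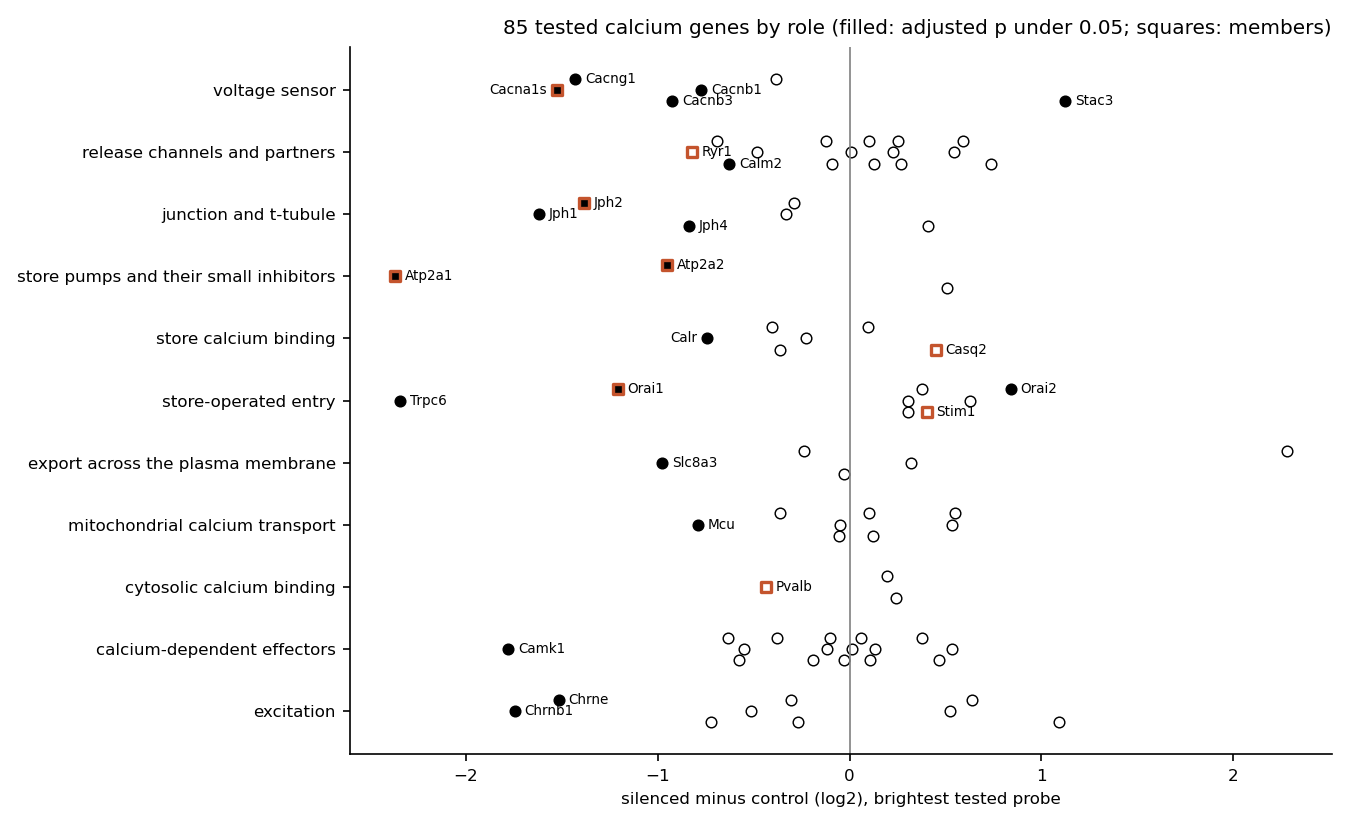
Log2 change, silenced minus control (x axis), of the brightest probe of the 85 tested calcium genes, in rows by role; filled symbols passed an adjusted p of 0.05 and squares are the members. Of the filled symbols 18 lie below 0 and 2 (Stac3 and Orai2) above it.

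Markers of the cells themselves are given beside these values. Myod1 fell by 1.95 on the log2 scale (limma adjusted p 0.0013), Des by 1.35 (limma adjusted p 0.00374) and Cdh15 by 0.86 (limma adjusted p 0.0141). The other 5 myoblast markers, Pax7 and Vim among them, did not pass. Under cyclic loess the same 3 fell, while Pax7 (0.39, limma adjusted p 0.0286) and Myf5 (1.19, limma adjusted p 0.00609), which was well above background on no array, passed as higher. Of 15 tested genes of differentiated muscle 4 fell and 1 rose (5 and 2 under cyclic loess), beside the 14.0% and 5.99% of all genes. Those that fell were Tmem8c, the myoblast fusion factor myomaker (-2.04), Acta1, skeletal actin (-1.88), Actn3 (-0.76) and Myh1, which was well above background on 2 control arrays and on no silenced array. The troponin gene Tnni2 rose (1.02). The summed log2 level of that list was 13.50 to 13.85 in controls and 13.20 to 13.50 in silenced cells. The part of this difference in the members' changes was not tested.

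Deviations of each array from its group mean were set against those of 14995 or 14996 other probes with a symbol, for members well above background on all 8 arrays. Most alike were Htt and Alg10b for Ryr1, Zfp692 and Zdhhc12 for Atp2a2, Foxo6 and Ccz1 for Casq2, Tbc1d1 and Gins4 for Jph2, Tbc1d4 and Prnp for Stim1, and Tcaf1 and Cnot3 for Orai1. Pearson's r over the 8 arrays was 0.995 to 0.999, picked as the highest of all. These points share array brightness, and no p is given.

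Promoter windows were read from RefSeq (GRCm38.p6) for 9 of the 10 members, all but Atp2a2. Each window began 250 bases before the start site and ran a short stretch past it. CAGCTG, an E-box of the kind that muscle regulatory factors bind, reads the same on both strands. It was found in the windows of 5 members, Atp2a1, Cacna1s, Jph2, Orai1 and Casq1, and for Jph2 in both of its windows. Over the whole set it was in 13.0% of all 32851 windows, a share of windows and not of genes. Of the 4 members among these that fell, each is shown over 60 bases, 5′ to 3′ on the gene's strand, with the E-box in capitals. These coordinates belong to GRCm38.p6 and are not those of the probes.
Atp2a1, chr7:126463096-126463155, minus strand: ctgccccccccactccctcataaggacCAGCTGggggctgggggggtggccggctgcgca
Cacna1s, chr1:136052661-136052720, plus strand: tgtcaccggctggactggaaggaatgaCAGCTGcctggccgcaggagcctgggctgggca
Jph2, chr2:163397974-163398033, minus strand: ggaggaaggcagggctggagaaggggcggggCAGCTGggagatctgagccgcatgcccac
Orai1, chr5:123014824-123014883, plus strand: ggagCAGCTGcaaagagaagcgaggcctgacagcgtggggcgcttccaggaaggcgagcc
The hexamer began 55 bases upstream of the start site in Atp2a1, 123 in Cacna1s, 246 in Orai1 and 29 or 9 from the 2 annotated starts of Jph2. The windows of Ryr1, Casq2, Stim1 and Pvalb did not hold it. CACGTG and TATAAA, the latter searched on both strands, were in the window of no member, beside 6.02% and 12.4% of all windows. A match describes these letters and does not show that a factor binds there.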

How the data were processed

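RNA of 8 C2C12 cultures was hybridised to 1-colour Agilent arrays on 1 slide. The deposited scanner files hold spot intensity, background-subtracted and detrended by the authors with Feature Extraction (12.0.0.7 per the file headers, 10.7.3.1 per the labels), together with flags of 0 or 1 (other units) for signal above background. The authors' series table, also intensity, was used as an alternative.

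Spots not positive and significant were set to missing, and outlier-flagged spots were left out. The log2 values were quantile normalized and averaged by probe, following the study's methods. Probes with at least 3 values in each group (28649) were fitted in limma 3.58.1 under R 4.3.3, a tool chosen here, by group alone, and adjusted by Benjamini-Hochberg at 0.05. The fit was tested on simulated data. Differences between probes of a gene were tested by exact permutation.

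Members, lists and tests were chosen with earlier results of these data known. A gene was represented by its brightest probe over 8 arrays. Every member was named, with listed genes that passed (first the 15 largest changes, then the other 5), those that passed under cyclic loess, relatives that did not, and the 2 genes most like each member. Marker levels were summed without masking. Symbols and coordinates (mm9) are those of the array design, and exons and UTRs were not analysed here. The labels call the cultures biological replicates. Precision is limited by the number of arrays. Alternatives were 3 normalizations or corrections, the authors' table, 3 filters, the replicate and slide row blocks, another prior, the methods' t-test (unequal variance, stated for this experiment; Benjamini-Hochberg added here), other probes of a gene and leaving out each array. Leaving out control replicate 3 with silenced replicate 4, and further pairs of Atp2a2 probes, were added after seeing the data. Figures were drawn with matplotlib 3.10.9. Some genes of the list are not reported here by name.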

Additional observations from a re-analysis of the deposited data

Results flagged for a closer look

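In 132 groups of 4 arrays (the tested member probes, Pvt1, and the other calcium and marker genes named here), 11 held an array far from the other 3 by Dixon's criterion at 95%, where chance gives about 1 in 20. Calm3 and Slc8a1 were named because of such an array, so the count is not a fair draw. Control replicate 3 was the array in 6 of the 11. At Atp2a2 the shared probe read 7.46 there, beside 9.73 to 10.06 on the other controls. The variant 1 probe read 11.26, beside 12.32 to 12.42, and the variant 2 probe read 10.62, beside 10.05 to 10.14. Control replicate 3 was thus low at the upstream pair of sites and high at the most downstream site of 1 gene. Calm3, a calmodulin gene, read 11.31 there, beside 13.86 to 14.14 on the other controls and 13.35 to 13.65 in silenced cells. Micu2 read 9.36, beside 11.77 to 11.86 and, in silenced cells, 10.40 to 11.58. The changes of Calm3 and Micu2 were 0.23 and -0.06 over all arrays, and -0.45 and -0.67 without control replicate 3 (limma adjusted p 0.132 and 0.123), and none of these passed the test. Myod1 read 12.81 on control replicate 3, beside 13.57 to 13.66.

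Silenced replicate 4, the dimmest array, was low in 3 groups. The Ryr1 junction probe read 6.69 there, beside 7.32 to 7.37, Dysf 7.52, beside 8.26 to 8.40, and Pax7 6.72, beside 7.89 to 8.0. Chrnb1 read 8.51 on silenced replicate 3, beside 9.25 to 9.31. Slc8a1, a sodium-calcium exchanger best known from heart, read 11.37 on silenced replicate 1 and 4.94 to 5.88 on silenced replicates 2 to 4, beside 4.07 to 5.53 in controls. Its change of 2.28 did not pass the test (limma adjusted p 0.207).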

How the results depend on the processing

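Jph2 and Orai1 kept their calls under all 20 alternatives and Atp2a1 under all 19 that gave a value. Cacna1s lost its call with normexp (-0.42) and the shared Atp2a2 probe without masking and with the methods' t-test, while the variant 1 probe lost it in 14 of 20. Across leave-one-out settings, 5 to 6 member probes and 4 to 5 member genes were called, Pvt1 changed by -3.14 to -2.66, the calls over all probes ranged from 3704 (without control replicate 4) to 8838 (without silenced replicate 4), beside 6642, and 3785 without control replicate 2. Member probes called higher were 0, but 2 with the 75th percentile shift, cyclic loess, the authors' table or no masking, and 3 without control replicate 3 and silenced replicate 4 together. Over all tested probes those called higher, in the same order, were 7135 of 28649, 5416 of 28649, 5009 of 25018, 4990 of 56600 and 5442 of 28649. Calls over all probes were 11434 with the 75th percentile shift, 10674 with cyclic loess, 3107 with the slide row as block, 3420 with the methods' t-test (9021 unadjusted) and 12335 without the 2 doubted arrays. Of the calcium list 20 genes were called, but 37 with the 75th percentile shift, 33 in the authors' table, 10 with the slide row block, 11 with the methods' t-test (31 unadjusted) and 41 without the 2 doubted arrays. Leaving out 1 array gave 9 (control replicate 4), 11 (control replicate 2), 12 (silenced replicate 1), 13 (silenced replicate 3) and at most 29 (silenced replicate 4). The downstream Stim1 probe turned to -0.0035 with spots well above background only and ranged from -0.072 to 0.34 when 1 array was left out. The probe difference of Ryr1 ranged from -0.38 to 0.60, and was -0.36 without the 2 doubted arrays. Those of Atp2a2 and Stim1 ranged from -2.81 to -1.73 and from 0.23 to 0.39 when 1 array was left out. Both passed without control replicate 3 (-2.81 and 0.23), where both had the smallest possible exact permutation p, 0.0286. They were -2.85 and 0.19 without the 2 doubted arrays (exact permutation p 0.10, adjusted 0.15 each). That is the smallest p that so few arrays allow, so neither could pass there. The causes were not tested.

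Same-numbered arrays of the groups had deviations correlated at -0.02, 0.15, 0.20 and 0.06, so the numbers were not taken to pair them. With a replicate block 5017 probes, 13 list genes, 5 member probes and 4 member genes were called. Dim signal limits Cacna1s, the upstream Ryr1 probe, Atp2a1 and the shared Atp2a2 probe in silenced cells, Pvalb and Casq1.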
